A study of Mus musculus with 17 samples.

Results

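The replicative helicase of mouse cells was followed through 7 genes, Mcm2, Mcm3, Mcm4, Mcm5, Mcm6, Mcm7 and Mcm10, chosen as a gene family from the 21887 protein-coding genes on chromosomes 1 to 19, X and Y. Their gene ends were read in CUT&RUN peak lists, a method that uses an antibody to guide a nuclease to the DNA around its target and sequences the fragments cut loose. A gene end was counted as occupied where a peak's summit lay within 500 bp of it. The cells were urothelium (the epithelial lining of the bladder) peeled from Stag2-KO mice, which had lost the cohesin subunit gene Stag2, or from Stag2-WT mice, all taken 1 week after TMX induction. The antibodies were against STAG2, against LIN54 and against p130. There were 2 KO and 2 WT libraries for STAG2, 2 KO and 3 WT for LIN54, and 3 KO and 3 WT for p130, labelled as biological replicates. The age and sex of the mice, the promoter behind the recombinase, and whether cells of several animals were pooled are not given in the sources used here, so p-values measure only the spread between libraries.

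Mcm2 to Mcm7 encode the subunits of a ring that is loaded onto DNA at replication origins in G1 phase and unwinds DNA in S phase. Mcm10 is not part of the ring and acts when the loaded ring is turned into a moving helicase. The genes are textbook targets of E2F factors. In resting cells such genes are bound by DREAM, a repressor complex in which the pocket protein p130 (encoded by Rbl2) with E2F4 and DP joins the MuvB core, whose DNA-binding subunit is LIN54. STAG2 belongs to cohesin, the complex that holds sister chromatids and forms chromatin loops. The urothelium divides rarely in a healthy adult bladder.

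The 15 lists held 286079 to 539191 peaks each, down to a p of 0.05, of which 316 to 25859 reached q 0.01. The lists do not give read totals. The depth they show is the background under their peaks, which at its 5th percentile was 1.28 to 2.03 fragments per base, so where the background is that low a fold of 2 rests on only a few fragments, and a missing peak is one not detected at this depth. Batch 1 held all libraries of the STAG2 and LIN54 antibodies, batch 2 held p130-WT replicate 1 alone and batch 3 held the rest of p130, so that for p130 against the other antibodies the antibody and the batch cannot be told apart. One library stood apart from its group: p130-WT replicate 1 had the longest list and 5.98% of its peaks on chromosome X, against 0.440% and 0.465% in the other p130-WT libraries. Over all libraries this share was 0.259% to 0.744% in KO and 0.440% to 5.98% in WT libraries. Within each antibody every KO library had a lower share than every WT library. With LIN54 it was 0.486% and 0.744% in KO, against 5.09%, 4.17% and 3.16% in WT. With STAG2 it was 0.436% and 0.259% in KO, against 1.00% and 2.42% in WT. With p130 it was 0.310% to 0.330% in KO. What set the genotypes apart in this share was not tested. The STAG2 antibody gave a peak at the ends of Stag2 itself in 1 of 2 KO libraries, with a fold of 1.83 that missed q 0.01, and in 1 of 2 WT libraries, with a fold of 5.75 that passed it.

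Promoters of the genes on which the results turn are shown first, as RefSeq gives them on GRCm38.p6 (the mm10 assembly), from 250 bases before to 50 bases after the transcript start and in the direction of transcription. Capitals mark matches to the E2F motifs TTTCGCGC, TTTGGCGC and TTTCCCGC and to the CHR motifs TTTGAA and TTCGAA, searched on both strands. CHR stands for cell cycle genes homology region, the element that LIN54 binds. Mcm3 (chr1:20820263-20820562, minus strand), Mcm5 (chr8:75109259-75109558, plus strand), Mcm6 (chr1:128359656-128359955, minus strand) and Mcm7 (chr5:138171834-138172133, minus strand) are shown for their p130 peaks, and Mcm10 (chr2:5012742-5013041, minus strand) for its LIN54 peaks without strong p130 peaks.
Mcm3: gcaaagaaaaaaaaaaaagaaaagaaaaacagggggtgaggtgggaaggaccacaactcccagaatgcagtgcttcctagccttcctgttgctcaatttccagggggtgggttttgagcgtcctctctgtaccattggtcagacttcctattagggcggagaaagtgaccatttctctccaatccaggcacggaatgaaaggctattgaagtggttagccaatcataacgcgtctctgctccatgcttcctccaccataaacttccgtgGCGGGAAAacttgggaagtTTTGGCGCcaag
Mcm5: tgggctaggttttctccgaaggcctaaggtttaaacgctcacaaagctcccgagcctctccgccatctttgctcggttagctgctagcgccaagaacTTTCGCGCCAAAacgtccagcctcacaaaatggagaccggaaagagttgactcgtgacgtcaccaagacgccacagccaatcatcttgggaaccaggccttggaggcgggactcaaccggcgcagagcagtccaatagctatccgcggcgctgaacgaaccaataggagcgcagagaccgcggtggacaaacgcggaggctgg
Mcm6: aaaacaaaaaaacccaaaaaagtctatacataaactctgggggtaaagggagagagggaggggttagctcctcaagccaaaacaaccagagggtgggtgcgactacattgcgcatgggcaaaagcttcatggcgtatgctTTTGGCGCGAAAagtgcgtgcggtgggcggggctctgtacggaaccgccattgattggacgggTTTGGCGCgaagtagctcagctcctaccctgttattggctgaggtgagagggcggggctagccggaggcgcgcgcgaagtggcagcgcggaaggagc
Mcm7: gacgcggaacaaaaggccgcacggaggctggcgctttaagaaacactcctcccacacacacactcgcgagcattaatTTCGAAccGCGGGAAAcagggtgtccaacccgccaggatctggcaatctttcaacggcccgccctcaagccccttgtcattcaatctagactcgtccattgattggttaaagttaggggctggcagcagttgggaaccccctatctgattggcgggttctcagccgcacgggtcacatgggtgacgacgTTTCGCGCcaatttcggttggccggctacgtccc
Mcm10: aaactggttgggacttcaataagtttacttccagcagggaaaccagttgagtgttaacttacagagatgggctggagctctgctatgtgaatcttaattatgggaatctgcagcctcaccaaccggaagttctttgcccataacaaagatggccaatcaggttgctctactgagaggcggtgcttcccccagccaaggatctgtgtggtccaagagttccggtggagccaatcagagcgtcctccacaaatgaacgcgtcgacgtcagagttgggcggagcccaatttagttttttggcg

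An E2F match was present in the promoters of Mcm3, Mcm5, Mcm6 and Mcm7, which were 4 of the 6 members with a promoter entry. It was present in 1.84% of all 32851 RefSeq promoters of this length. Members are counted once, whereas the shares of all promoters count single entries. Mcm7 has 2 entries, and the second holds no E2F match. In Mcm5 and Mcm6 a match on each strand overlapped to form a longer run, TTTCGCGCCAAA in Mcm5 and TTTGGCGCGAAA in Mcm6. Mcm6 and Mcm3 also held a separate TTTGGCGC, and Mcm3 and Mcm7 held TTTCCCGC read on the opposite strand. A CHR match was found in Mcm2 (TTTGAA) and Mcm7 (TTCGAA), and some CHR match was found in 19.2% of all promoters. A CCAAT box, the site of the factor NF-Y, was in all 6 member promoters and in 37.4% of all promoters, and in Mcm7 one of its copies shared a base with the downstream E2F match. Positions given for matches are those of their first base, counted from the transcript start. No E2F match stood in the Mcm2 or Mcm10 windows, which says only that these letters are not there. The Mcm10 window ends in TTTGGCG, so a TTTGGCGC running past its edge would not be counted. Mcm4 had no entry in the promoter table.

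p130 marked the family most strongly. At q 0.01, Mcm3, Mcm4, Mcm5 and Mcm7 had a p130 peak in all 3 KO and all 3 WT libraries, 4 of 7 members, whereas 0.512% of all genes (112 of 21887) did. Among the deposited peaks, 6 of 7 members had a peak in each of the 6 libraries, against 3.83% of all genes, the exception being Mcm10. Each of these calls was made in both genotypes: the members with a peak in every library numbered 6 in KO, against 8.88% of all genes, and 6 in WT, against 14.3%. The exact permutation test over libraries found no member whose presence of a p130 peak differed between KO and WT, and with 3 libraries against 3 its p cannot go below 0.1. Over all genes it called 0 after Benjamini-Hochberg adjustment and 0 at an unadjusted p under 0.05.

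Mcm5, a ring subunit that forms the ring's gate together with Mcm2, carried the highest ranked p130 peak of the family. The authors' fold, the fragments at the summit plus 1 over the local background of the same library plus 1, was 17.0, 9.21 and 11.6 in the KO libraries, against 13.5, 18.6 and 24.7 in the WT libraries. By p-value, the peak ranked 5, 8 and 5 among all peaks of the KO lists, against 7, 2 and 1 in the WT lists. It was thus the strongest peak of WT replicate 3 genome-wide, and the KO and WT folds overlapped. The summit was covered by 106, 69 and 75 fragments in KO and by 61, 71 and 94 fragments in WT. The local backgrounds were 5.31, 6.60 and 5.54 in KO, against 3.59, 2.88 and 2.85 in WT, so both terms of the fold differed between libraries. The count of 94 missed the tolerance used for whole counts. All 6 summits lay upstream of the transcript start, between −98 and −42 bp, which is downstream of the paired E2F run in the sequence above, and the median summit was 77.5 bp from the centre of TTTCGCGC and 3.0 bp from the centre of the nearest CCAAT box.

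Mcm4 and Mcm7, ring subunits that form a stable subcomplex with Mcm6, came next by median rank over the 6 p130 lists. These medians were 11 and 22, against 5 for Mcm5. By fold the order differed, since Mcm4 stood above Mcm5 in every KO library and below it in every WT library. Mcm7 stood above Mcm5 by fold in KO replicates 1 and 2 and in WT replicate 1, and below it in the others. Mcm4 had p130 folds of 20.2, 11.7 and 14.6 in KO libraries, against 13.1, 10.2 and 15.3 in WT libraries, with ranks of 11, 11 and 9 in the KO lists and 16, 44 and 11 in the WT lists. The groups overlapped, and the single highest fold came from KO replicate 1. Mcm7 had folds of 17.4, 9.48 and 11.2 in KO libraries, against 13.6, 6.45 and 12.8 in WT libraries, with ranks of 21, 26 and 23 in KO and 14, 87 and 12 in WT. These groups overlapped as well, WT replicate 2 being the lowest library. The Mcm7 peaks were 1272 to 2107 bases wide, against a median width of 202 to 275 bases over all peaks of the p130 lists, and their summits stood between −76 and −36 bp from the first transcript start, in the stretch between the Mcm7 E2F matches at −165 and 16 bp.

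Mcm3, a ring subunit through which the loading machinery first contacts the ring in yeast, had folds of 7.77, 5.71 and 4.02 in KO libraries, against 14.6, 7.85 and 8.14 in WT libraries. Every KO fold was lower than every WT fold, the lowest WT fold being close to the highest KO fold. This held for 8.95% of the 838 genes with a p130 peak in every library, and the opposite order held for 6.44% of them. The ranks of the Mcm3 peak were 101, 75 and 276 in KO and 11, 63 and 65 in WT. Its summits were tightly placed, between −52 and −21 bp. The median summit was 50.5 bp from the nearer E2F match, which lies downstream of the start, and 2.0 bp from the nearest CCAAT centre. For p130 the latter distance was 10.0 bp at Mcm7 and 23.5 bp at Mcm6. These windows hold 2 or 3 CCAAT copies each, so a short distance to the nearest copy is not specific. A fold is each list's own value, so these orders are descriptions and were not tested between genotypes.

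Mcm6 and Mcm2 had weaker p130 peaks. Mcm6 had folds of 5.97, 3.78 and 4.62 in KO libraries, against 4.78, 4.29 and 3.15 in WT libraries, and 4 of the 6 peaks reached q 0.01. Its summits were spread from −112 to 74 bp, around the E2F matches at −110, −106 and −47 bp and the start itself. Mcm2, whose protein also carries histones at the fork, had folds of 6.09, 3.49 and 3.45 in KO libraries. In WT libraries its fold was 2.04 in replicate 1 and 3.19 in replicate 3, and in replicate 2 the only peak was at the 3′ end, with a fold of 2.34. Every KO value was higher than every WT value, as at 6.44% of the genes with a peak in every library, and only KO replicate 1 reached q 0.01.

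Mcm10 was the member with the least p130 signal. It had folds of 2.97 and 2.74 in KO replicates 1 and 2 and of 2.15 and 2.62 in WT replicates 1 and 2, with no peak in replicate 3 of either genotype. None reached q 0.01, and the peaks ranked between 38862 and 318854 in their lists. These values rest on 5 to 7 fragments at the summit.

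**Figure D1:**
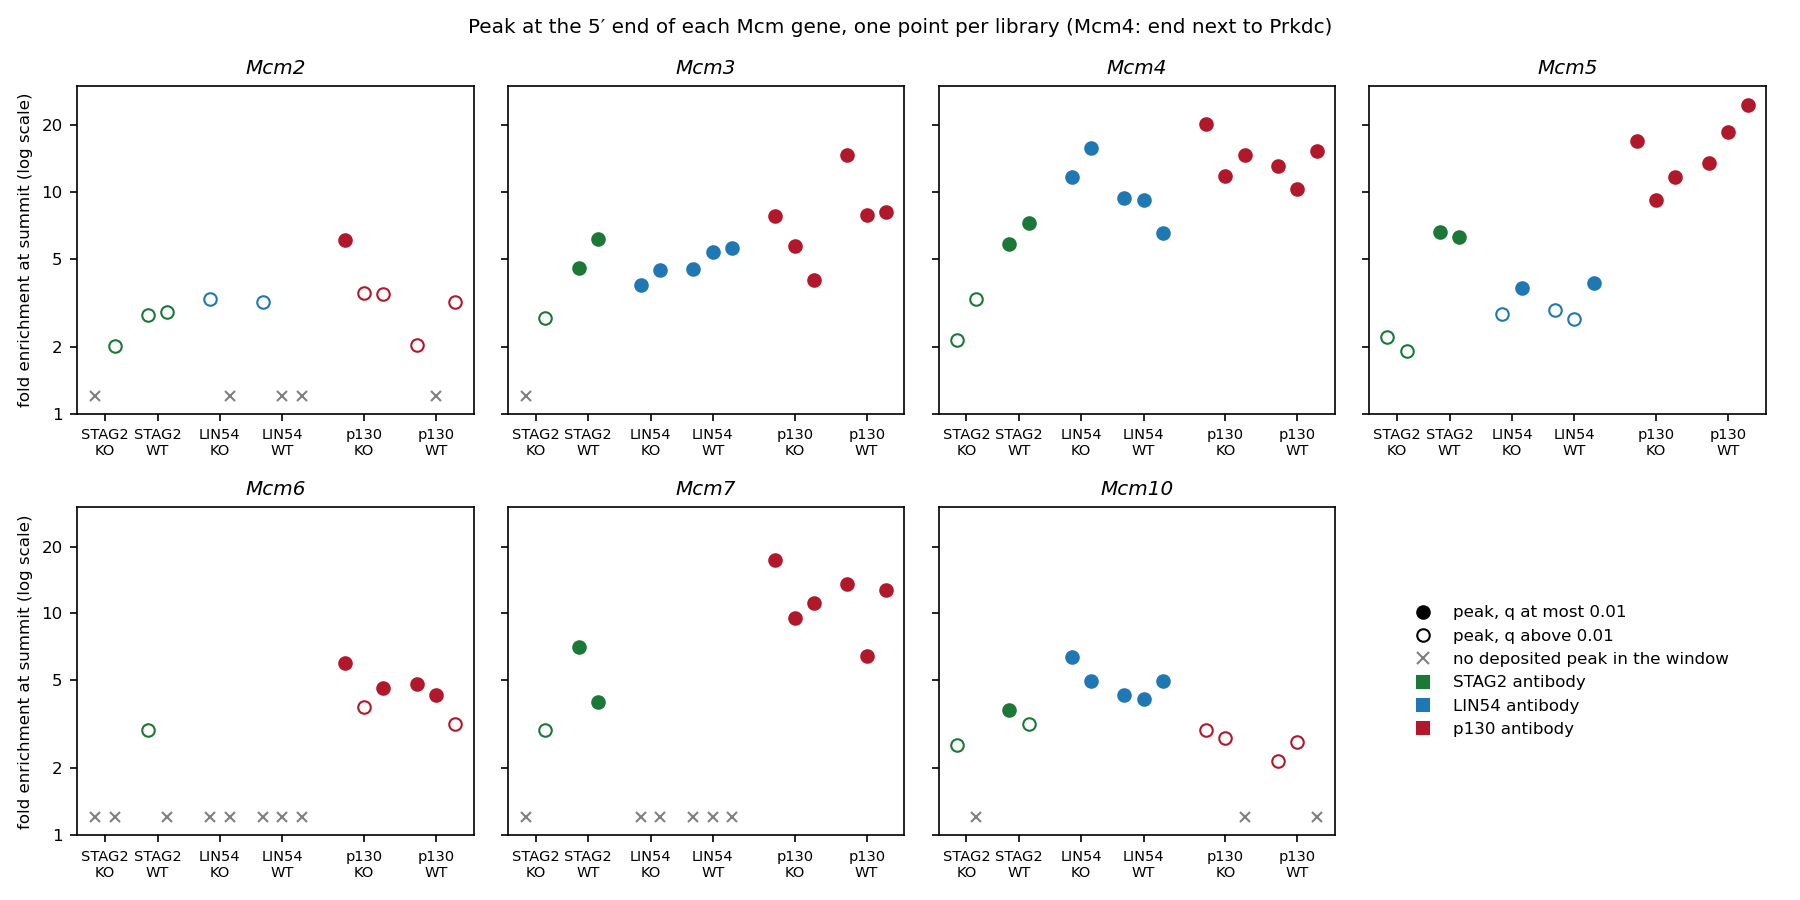
Fold enrichment (log axis) of the strongest peak at the 5′ end of each Mcm gene, one point per library, with KO left of WT for each antibody; filled points reached q 0.01, open points did not, and crosses mark libraries with no peak in the window. The p130 points of Mcm4, Mcm5 and Mcm7 lie between 6.45 and 24.7, those of Mcm10 stay below 3, and the LIN54 panel positions of Mcm6 and Mcm7 hold crosses alone.

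LIN54 peaks were found at part of the family. At q 0.01, Mcm3, Mcm4 and Mcm10 had a LIN54 peak in both KO and all 3 WT libraries, 3 of 7 members, against 4.58% of all genes. Among the deposited peaks, Mcm5 joined them, so that 4 of 7 members had a peak in all 5 libraries, against 19.7% of all genes. In each genotype alone these same 4 members had a peak in every library, against 35.5% of all genes in KO and 23.8% in WT. No member differed between KO and WT in the presence of a LIN54 peak by the exact permutation test, whose smallest p is 0.1 with 2 libraries against 3, and 0 of all genes did, adjusted or at an unadjusted p under 0.05.

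Mcm4 had the strongest LIN54 peak of the family, with folds of 11.6 and 15.8 in KO libraries, against 9.40, 9.20 and 6.50 in WT libraries. Every KO fold was higher than every WT fold, an order found at 46.1% of the 4319 genes with a LIN54 peak in every library. The peak ranked 686 and 274 in the KO lists and 403, 574 and 558 in the WT lists, so the within-list ranks of the genotypes overlapped. The KO lists also held more peaks at q 0.01, 13044 and 15787, against 2166 to 6617 in the WT lists, and the part of this in the higher fold was not tested.

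Mcm10 had LIN54 folds of 6.36 and 4.95 in KO libraries, against 4.30, 4.10 and 4.96 in WT libraries, and each of these 5 peaks reached q 0.01. The groups overlapped, since WT replicate 3 matched KO replicate 2. The 5 summits lay between −153 and 32 bp, near the CCAAT boxes at −98, −23 and 31 bp. The promoter window held no CHR match and no whole E2F match, but it stops at TTTGGCG, where a TTTGGCGC would be cut off. The summit held 15 and 12 fragments in KO and 10, 10 and 12 in WT.

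Mcm3 had LIN54 folds of 3.81 and 4.44 in KO libraries, against 4.46, 5.33 and 5.57 in WT libraries. Here every KO fold was lower than every WT fold, by a small margin between KO replicate 2 and WT replicate 1, an order found at 2.64% of the 4319 genes. Mcm5 had folds of 2.81 and 3.69 in KO libraries, against 2.93, 2.68 and 3.88 in WT libraries, and passed q 0.01 in KO replicate 2 and WT replicate 3 only. The groups overlapped.

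The remaining ring genes had little or no LIN54 signal. Mcm2 had a peak in KO replicate 1, with a fold of 3.29, and in WT replicate 1, with a fold of 3.19, neither at q 0.01. Mcm7 had no peak at its 5′ end in any of the 5 libraries, and a single peak at its 3′ end in KO replicate 2, with a fold of 1.97. Mcm6 had none at either end in any of the 5. Genes with no LIN54 peak at either end made up 38.5% of all genes over the 2 KO libraries and 27.4% over the 3 WT libraries. The share with none in all 5 libraries is not given here.

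**Figure D2:**
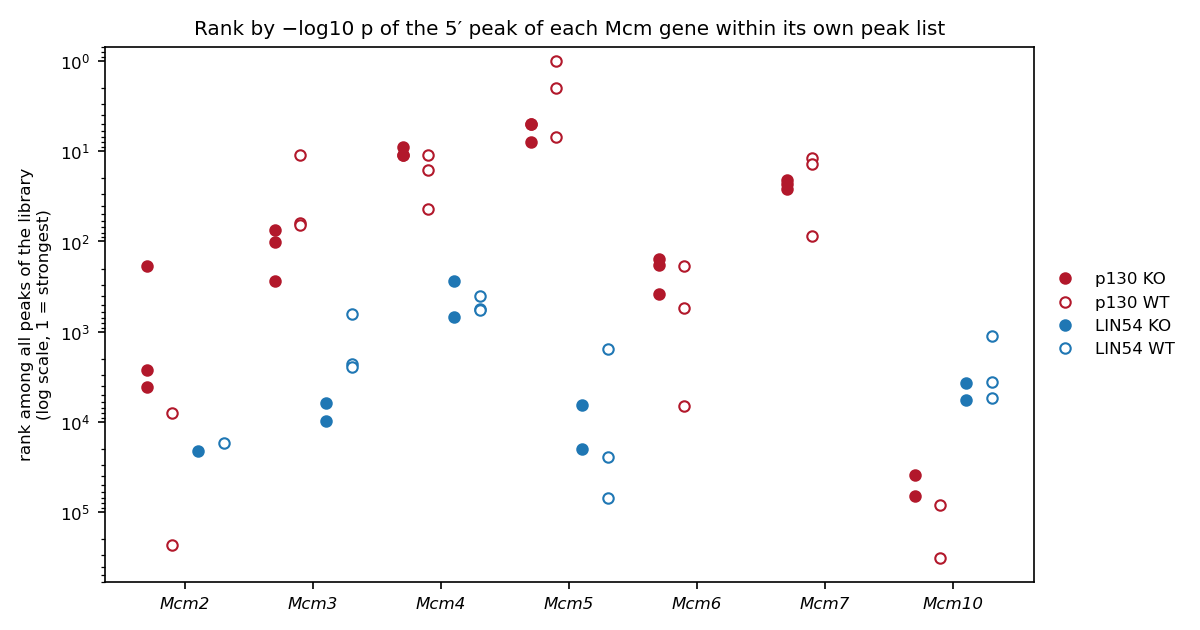
Rank of the 5′ peak of each Mcm gene among all peaks of its own library (log axis, strongest at the top), for p130 (red) and LIN54 (blue), with filled KO points left of open WT points. The p130 peaks of Mcm5 hold ranks 1 to 8, those of Mcm10 rank 38862 or lower, and the LIN54 peaks of Mcm10 rank between 1130 and 5689.

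The p130 and LIN54 patterns were set against each other, a contrast added after the values had been seen. At q 0.01 a p130 peak at Mcm7 was present in 6 of 6 libraries and a LIN54 peak in 0 of 5. At Mcm10 the order was reversed, with p130 in 0 of 6 libraries and LIN54 in 5 of 5. Both gave an exact permutation p of 0.00216, two-sided and the smallest that 6 libraries against 5 allow, and an adjusted p of 0.086 over all genes, which misses 0.05. With the p130 libraries of batch 3 alone the exact permutation p was 0.00794 and the adjusted p 0.31 for each gene. The LIN54 libraries in that comparison were all of batch 1, so it did not separate antibody from batch. Over every threshold tried, batch 3 alone and each library left out, the adjusted p ranged from 0.086 to 0.687 for Mcm7 and from 0.086 to 1.0 for Mcm10. A gene with p130 in all libraries and LIN54 in none was rare, at 0.0137% of all genes (3 of 21887, Mcm7 among them), and one with LIN54 in all and p130 in none made up 2.5% (548 genes, Mcm10 among them). The 3 came from 112 genes with p130 in every library, and the 548 from 1002 genes with LIN54 in every library. The Mcm10 pattern was thus common among LIN54-marked genes. The p130 lists held 316 to 896 peaks at q 0.01, against 2166 to 15787 in the LIN54 lists, and the part of this was not tested.

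The lists differ in length, so equal numbers of peaks were also compared. Among the 20000 best peaks of each library, Mcm6 joined Mcm7 with p130 in 6 of 6 and LIN54 in 0 of 5 libraries, and Mcm10 again had p130 in 0 of 6 and LIN54 in 5 of 5. Each of the 3 genes had an adjusted p of 0.114. Mcm3 and Mcm4 did not separate the antibodies, with p130 in 6 of 6 and LIN54 in 5 of 5 libraries at q 0.01. Mcm5 had p130 in 6 of 6 and LIN54 in 2 of 5, with an exact permutation p of 0.0606 and an adjusted p of 0.58. No gene of the 21887 passed the adjusted test, whereas 6.52% of genes had an unadjusted p under 0.05 at q 0.01.

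The STAG2 antibody gave weaker peaks in KO than in WT libraries at most of the family, though no test between 2 and 2 libraries can pass. At q 0.01 no member had a STAG2 peak in either KO library, which was also true of 89.6% of all genes, and 1.9% had one in both. In both WT libraries Mcm3, Mcm4, Mcm5 and Mcm7 had one, 4 of 7 members, against 12.6% of all genes. A peak in both WT and neither KO library was found at 6.19% of all genes (1354), and at 0.032% in the opposite direction. For each of these 4 genes the exact permutation p was 0.333, the smallest that 2 libraries against 2 allow, and the adjusted p was 1, so no gene could be called. The KO lists were also weaker as a whole, with 1239 and 6777 peaks at q 0.01, against 25859 and 13346 in the WT lists, and its part in the members' lower count was not tested.

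At Mcm5 the STAG2 fold was 2.21 and 1.91 in KO libraries, against 6.57 and 6.27 in WT libraries. The summit held 7 and 7 fragments in KO, against 25 and 23 in WT, over backgrounds of 2.62 and 3.18 in KO and 2.96 and 2.83 in WT. The WT summits lay at −85 and −74 bp from the start, the same place as the p130 summits, while the KO summits lay apart at −255 and 284 bp. At Mcm4 the fold was 2.15 and 3.29 in KO libraries, against 5.79 and 7.21 in WT libraries. At both genes every KO fold was lower than every WT fold, as at 54.5% of the 3555 genes with a STAG2 peak in all 4 libraries.

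Mcm3 and Mcm7 each lacked a STAG2 peak in KO replicate 1. In KO replicate 2 the fold was 2.71 at Mcm3, against 4.53 and 6.14 in WT libraries. For Mcm7 it was 2.97 in KO replicate 2, against 7.08 and 3.97 in WT libraries. Both genes thus had a weak peak in the KO library with more q 0.01 peaks and none in the other. The Mcm7 WT summits, at −157 and −122 bp, stood further upstream than the p130 summits, and in WT replicate 1 the peak was 3657 bases wide.

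At the other members no STAG2 fold in either genotype exceeded 3.68. Mcm10 had a fold of 2.55 in KO replicate 1 and no peak in KO replicate 2, against 3.68 and 3.17 in WT libraries, of which WT replicate 1 reached q 0.01. Mcm2 had a fold of 2.02 in KO replicate 2 alone, against 2.80 and 2.88 in WT libraries. Mcm6 had only a 3′ peak in KO replicate 2, with a fold of 2.17, against 2.97 at its 5′ end in WT replicate 1 and no peak in WT replicate 2. Counted on the deposited lists, 2 of 7 members had a STAG2 peak in both KO libraries, against 25.5% of all genes, and 6 of 7 in both WT libraries, against 35%. Read singly, STAG2-KO replicate 1 had a deposited peak at 3 of 7 members (38.7% of all genes) and replicate 2 at 6 of 7 (46.2%). WT replicates 1 and 2 had 7 and 6 (50.7% and 53.0%), so the KO count changed with the library. At q 0.01 both KO libraries had 0 members.

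**Figure D3:**
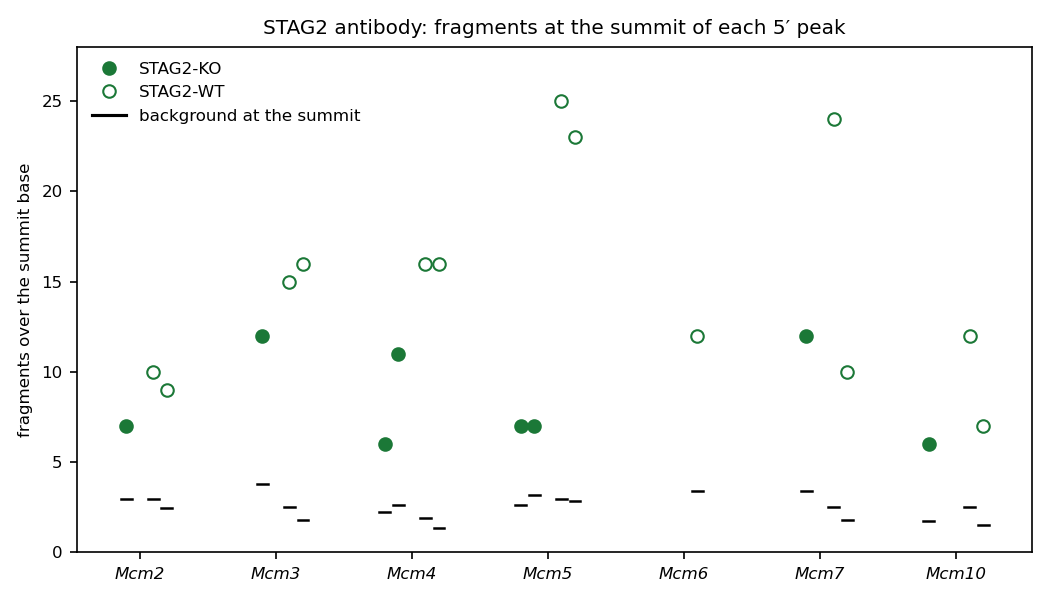
Fragments over the summit base of each 5′ STAG2 peak (points, filled for KO on the left and open for WT on the right, one per library) with the local background of the same library as a black line. At Mcm5 both KO points stand at 7 fragments and the WT points at 25 and 23; a missing point is a library with no peak at that end.

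Few genes had all the antibodies' peaks. Mcm3 and Mcm4 had a peak at q 0.01 in both STAG2-WT, all LIN54 and all p130 libraries, as did 74 of 21887 genes (0.338%). On the deposited lists Mcm5 was added, and 2.37% of all genes met that rule.

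Peaks sat at the 5′ ends. Of the 92 deposited peaks at member ends, 83 were at the 5′ end (for Mcm4, the end next to Prkdc) and 9 at the 3′ end, and all 55 that reached q 0.01 were at the 5′ end. The highest fold at a 3′ end was 2.69. Of the 105 combinations of gene and library, 85 had a peak and 55 had one at q 0.01.

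Neighbouring genes share some of these ends. Mcm4 (chr16:15623897-15637400) ends 44 bp from Prkdc, which encodes the catalytic subunit of DNA-dependent protein kinase and starts its interval at position 15637444. In all 15 libraries the Mcm4 summit lay inside the Prkdc interval, between −77 and −471 bp from the Mcm4 end, so it cannot be assigned to either gene. Mcm7 (chr5:138164583-138172111) overlaps Ap4m1, a gene for an adaptor complex subunit, and their ends lie 90 bp apart. The p130 summits at Mcm7 lay short of that end at 138172021, between the first Mcm7 start and Ap4m1, and the WT STAG2 summits lay at 138172040 and 138172005, on either side of it. Mcm2 (chr6:88883474-88898780), Mcm3 (chr1:20802966-20820312), Mcm5 (chr8:75109468-75128439), Mcm6 (chr1:128331575-128359705) and Mcm10 (chr2:4990724-5012791) had no other gene end within 500 bp.

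**Figure D4:**
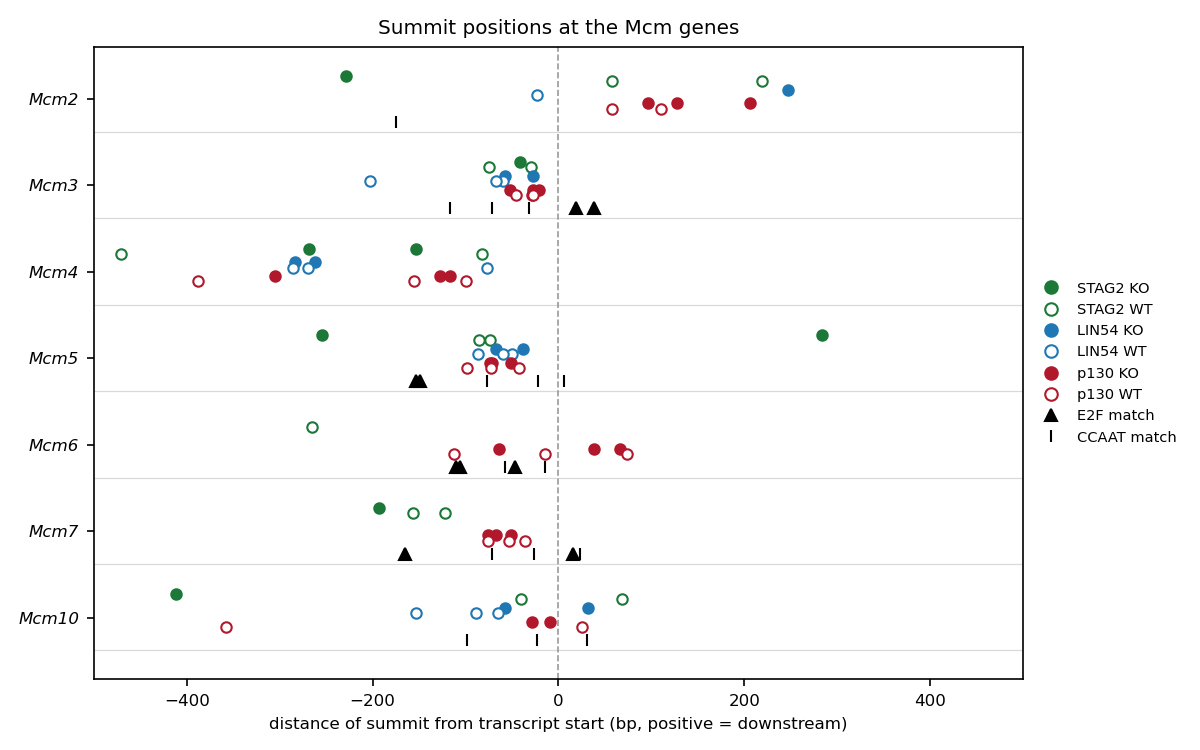
Distance of each summit from the transcript start in bp (for Mcm4, from the gene end next to Prkdc, with negative values beyond that end), by antibody colour, filled for KO and drawn just above open WT points; triangles mark E2F matches and bars CCAAT matches in the first promoter window. The p130 summits of Mcm3, Mcm5 and Mcm7 are tightly grouped between −98 and −21 bp, and the Mcm5 summits of the STAG2 KO libraries lie far to both sides of the WT summits.

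Genes whose profile over the 15 libraries came closest to each member were found from the percentile of the gene's best fold within each library, as the mean absolute difference. Mcm4 was most like Esyt1 (1.47 percentile points) and Hscb (1.52), and Mcm3 most like Esco2 (2.54), a cohesin acetyltransferase gene, and Chtf18 (2.97), a clamp loader gene. Mcm5 was closest to Msh5 (6.63) and Cdkn3 (7.61), and Mcm10 to Hspb6 (6.35) and Samd4b (6.98). Matches were looser for the members with mostly missing LIN54 peaks. Mcm7 was closest to Mcm6 (13.4) and to Rbl1 (16.4), the gene of the p130 relative p107, while Mcm6 was closest to Aldh1b1 (12.7) and Clasp2 (13.3), and Mcm2 to Gm266 (12.7) and Cdkn2a (12.9). These are descriptions across libraries that share batches and depth.

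The other genes of helicase loading and activation, a list of 25, were read in the same way. At q 0.01, 3 of 25 had a p130 peak in every KO library (0.681% of all genes) and 4 of 25 in every WT library (0.758%). For LIN54 the counts were 9 of 25 in KO (15.8% of all genes) and 4 of 25 in WT (4.71%). For STAG2 they were 1 of 25 in KO (1.9%) and 6 of 25 in WT (12.6%). No gene of the list passed the exact permutation test between genotypes for any antibody.

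Of the GINS subunits, which join the ring in the active helicase, Gins1, Gins2 and Gins4 had peaks at q 0.01 in every library of p130 or LIN54, and Gins3 had not. Gins2 had p130 folds of 9.28 ± 1.39 in KO and 6.40 ± 1.72 in WT libraries (SD, n = 3 each), and LIN54 folds of 15.2 to 17.3 in the 2 KO and 9.38 to 12.2 in the 3 WT libraries. Gins1 had p130 folds of 8.73 ± 1.51 in KO and 6.64 ± 1.46 in WT libraries (SD, n = 3 each), all at q 0.01. Gins4 had LIN54 folds of 4.65 to 5.27 in KO and 4.87 to 5.03 in WT libraries, each at q 0.01. Ticrr, which helps to recruit Cdc45 to the ring, had p130 folds of 8.29 ± 1.80 in KO and 8.14 ± 0.661 in WT libraries (SD, n = 3 each), LIN54 peaks at q 0.01 in all 5 libraries, and STAG2 peaks at q 0.01 in both WT libraries and in neither KO library. Orc6, an origin recognition subunit, had the same STAG2 pattern, with folds of 2.87 and 3.14 in KO and 5.40 and 5.42 in WT libraries, and LIN54 folds of 15.1 to 15.6 in KO and 4.66 to 9.59 in WT libraries. Gmnn, whose product geminin blocks reloading, and Mcm9, a relative of the ring genes used in repair, had LIN54 peaks at q 0.01 in both KO libraries and in no WT library, although weaker WT peaks were on the lists. Gmnn had LIN54 folds of 3.66 to 4.94 in KO, against 1.89 to 2.88 in all 3 WT libraries, and Mcm9 had folds of 6.22 to 7.69 in KO, against 1.86 to 2.54 in 2 of 3 WT libraries. For each the exact permutation p at q 0.01 was 0.1, the smallest possible, and 3.99% of all genes had this pattern. Every LIN54 KO fold was above every WT fold at 46.1% of the 4319 genes with a peak in every library. The LIN54 KO lists also held more peaks at q 0.01 than the WT lists, and the part of this in the folds of Gins2, Orc6, Gmnn and Mcm9 was not tested.

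Markers of the tissue and of other cell types were read against the shares of all genes with a peak in every library. On the deposited lists, 4 of 11 luminal urothelial genes had a STAG2 peak in both KO libraries (25.5% of all genes) and 8 of 11 in both WT libraries (35%). With LIN54 the counts were 6 of 11 in KO (35.5%) and 4 of 11 in WT (23.8%), and with p130 they were 1 of 11 in KO (8.88%) and 1 of 11 in WT (14.3%), so that several lie near the share of all genes and no difference between antibodies was tested. At q 0.01 the luminal counts with STAG2 were 1 of 11 in KO (1.9% of all genes) and 4 of 11 in WT (12.6%). With LIN54 they were 2 of 11 in KO (15.8%) and 0 of 11 in WT (4.71%). With p130 they were 0 of 11 in KO (0.681%) and 0 of 11 in WT (0.758%). Of 5 basal genes, 2 had a deposited STAG2 peak in both KO and 1 in both WT libraries. Among genes of fibroblasts (6), smooth muscle (5), immune cells (6) and endothelium (5), at most 3 of a list had a deposited peak in every library of a group. At q 0.01 only the immune gene Cd68 did, with LIN54 in KO, as did 15.8% of all genes. Of 8 genes typical of other tissues, such as Alb and Ins2, 1 had a deposited STAG2 peak in both KO libraries, against 25.5% of all genes. In both WT libraries 3 of the 8 had one, near the 35% of all genes. A peak at a gene end marks occupancy and not expression, so these counts do not measure which cells were present.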

How the data were processed

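Peaks were called for each library separately, and the submitters' processing notes name bcl2fastq, Bowtie2 and MACS2 and the mm10 build; tool versions are not given in the sources used here. The authors deposited, for each peak, a fold enrichment (a linear ratio of summit to background, whose values match 1 added to both terms), and −log10 p and −log10 q values. Whether a control entered the calls is not stated, and the 2 pMNase control samples were not analysed here. Only autosomes and chromosomes X and Y were used. A gene of the GRCm38.p6 RefSeq table had a peak where a summit came within 500 bp of an end; the peak with the highest fold was used. Fragments at a summit were recovered from fold and p, with 99.99% to 100% of values whole within 0.0002 log10, and cover counting error only. Presence was compared over libraries with a two-sided exact permutation test for each of 21887 genes, with Benjamini-Hochberg adjustment over all of them and a threshold of 0.05; the folds of different lists were not tested. The members, lists and settings were chosen with earlier results of these data known. Genes were named by rule: all members, list genes at q 0.01 in every library of both genotypes or of one genotype alone, the 2 most alike genes per member, and neighbours within 500 bp. Alternatives were q 0.01, −log10 q of at least 5, the 20000 best peaks, windows of 250 and 1000 bp, the replicate block, batch 3 alone, each library left out and the 5′ end only, the last chosen after seeing the data, as was the p130 against LIN54 contrast. Scripts ran under Python 3.11.15 with SciPy 1.17.1, NumPy 2.4.6, Matplotlib 3.10.9 and pandas 2.3.3, and the code was tested on simulated data.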

Additional observations from a re-analysis of the deposited data

How the results depend on the processing

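Between genotypes, 0 genes passed the test with any antibody under each of the 34 alternative fits, and 0 had an unadjusted p under 0.05 on the deposited lists and at q 0.01. The number of members with a STAG2 peak in both KO libraries was 2 on the deposited lists (25.5% of all genes) and 0 at q 0.01 (1.9%). It was also 0 at −log10 q of at least 5, with the 20000 best peaks and with a 250 bp window. With 1 KO library left out it was 3 to 6 (6 without STAG2-KO replicate 1). That leaves a single library to hold the peak, so the count can only stay or rise. At −log10 q of at least 5 the members with a peak in every library numbered 2 in STAG2-WT, 1 in LIN54-KO, 1 in LIN54-WT and 3 in p130-KO. In p130-WT Mcm3, Mcm4, Mcm5 and Mcm7 kept a peak in every library, the lowest −log10 q being 9.61, at Mcm7 in WT replicate 2. The share of all genes at this threshold is not given here, so these counts have no background beside them. The KO minus WT difference in the mean number of members with a peak per library was −2.0 for STAG2, and −4.5 at q 0.01. For LIN54 it was 0.6667, and 0.1667 at q 0.01, at −log10 q of at least 5 and with the 5′ end only, 0.0 with a 1000 bp window, and −0.1667, a change of sign, with the 20000 best peaks and with a 250 bp window. For p130 it was 0.0, and 0.6667 with the 20000 best peaks. With each library left out it ranged from −3.5 to −0.5 for STAG2, 0.5 to 1.0 for LIN54 and −0.3333 to 0.3333 for p130. Of the single genes, Mcm2 turned direction with LIN54, its KO minus WT share of libraries being 0.1667, but −0.3333 with the 20000 best peaks or without LIN54-KO replicate 1 and −0.1667 with a 1000 bp window; the cause was not tested for any of these. Replicate numbers were taken from the sample titles, and the library name of STAG2-WT replicate 2 carries the number 3, so its pairing is in doubt. The main tests did not pair libraries by these numbers. Deviations of same-numbered libraries from their group means correlated at −0.00967 to 0.0295 over all genes. In a group of 2 libraries the deviations mirror each other, so these values cannot show whether libraries shared animals or preparation. With the replicate block, 0 genes passed the test, whose smallest p is then 0.5 for STAG2 and LIN54 and 0.25 for p130, and the LIN54 difference was 0.5. Depth limits the weak peaks, many of which rest on 5 to 12 fragments, and groups of 2 or 3 libraries cannot reach a p of 0.05 between genotypes.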
